A study of Oniscidea with 6 samples.

Results

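The genes described here are the developmental transcription factors of 9 families outside the Hox clusters, namely Pax, Nkx, Lhx, sine oculis (Six2 and its relatives), Dlx, Sox, Fox, Tbx and Pou, chosen by the start of their gene symbol. The pattern matched 146 of 24421 rows of the table, of which 134 are factor genes and 12 are noncoding RNAs named after a factor gene that they overlap or lie opposite to (Sox5os3, Dlx6os1 and the like). Poly(A) RNA of woodlice (Oniscidea, the terrestrial isopods) was sequenced from 3 rolling and 3 stretching samples of fresh, untreated tissue. The labels give no species below the suborder, no tissue, age, sex or strain, and do not tell separate animals from repeat preparations, so the p-values below speak only of the spread between libraries, which may be technical. Reads were counted under mouse gene symbols. A symbol such as Pax3 is therefore the mouse name that collected the reads and no established woodlouse orthologue, and the labels do not say how reads were divided between mouse genes of similar sequence, so that the split between paralogues within a family is uncertain.

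These families are built around DNA-binding domains that are shared across animals. Fox proteins carry the forkhead domain, Pax proteins the paired domain, Pou proteins a POU-specific domain with a homeodomain, Sox proteins an HMG box and Tbx proteins the T-box, while Nkx, Lhx, sine oculis and Dlx proteins are homeodomain factors, Lhx with additional LIM domains and those of the sine oculis family with a domain of their own. In animal embryos they set up organs, muscle, sense organs and parts of the nervous system, and many stay active in the adult tissues that they helped to form. FOXO proteins stand apart, since they act throughout life as targets of insulin signalling, which keeps most but not all of them out of the nucleus.

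Most of the 146 rows held few reads. In all, 122 (83.6%) had at least 1 read in the 6 libraries, against 74.8% of all features, and 23 had reads in every library. The level for testing, a normalised read count averaging 10 or more over the 6 samples, was reached by 18 (12.3%), against 12.1% of all features. Another 104 had reads but lay under this level, 49 of them with under 10 reads in all, and 24 had none. Libraries held 416821 to 1122154 counted reads in rolling and 403971 to 544157 in stretching, and 3 reads corresponded to a normalised count of 1.58 in rolling 1 and 2.87 to 3.67 in the other libraries. Since PCR duplicates could not be told from separate molecules, the intervals and floors given here cover counting error only. A floor covers it for the group without reads alone. Each fold given as "at least" takes the reads of the other group as exact. In bulk RNA, fewer cells of a type and less RNA per cell cannot be told apart.

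Of the 18 members tested, 14 passed limma's test (Benjamini-Hochberg adjustment over all features tested), 8 higher and 6 lower in rolling. That is 77.8%, where 75.2% of all 2948 tested features passed (37.8% higher and 37.4% lower), so the share of members is close to the background. The groups did not overlap for 15 of the 18, against 78.7% of all tested features. The level for testing averages both groups, so a row with almost no reads in one group entered only through the other. Foxe1 (means of 39.85 in rolling and 0 in stretching), Sox5os3 (27.98 and 0) and Nkx2-9 (0.176 and 26.94) were among such members. Entry thus partly set their call and their separation, as for other tested features of this kind. Among alternative fits, edgeR called 76.1% of the same features and limma without a filter 31.6% of all features with a read. Differences between groups are rolling minus stretching on log2(normalised read count + 1). The median log2 difference of the 18 was 1.08 and that of all tested features 0.10. The median of the 18 was also 1.08 with Foxe1 and Sox5os3, which lacked reads in stretching, set at their lower bound. Both stay far above the median at that bound, so this setting could not move it. The median absolute log2 difference was 1.99 for the members and 2.82 for all tested features. Calls by family were 2 higher and 3 lower among 5 Fox genes, 1 higher and 2 lower among 3 Nkx genes, 2 higher among 3 Pou genes, 2 higher among 3 Sox rows, 1 higher among 2 Pax genes and 1 lower for the only Tbx gene. The only tested Dlx row did not pass, and no Lhx or sine oculis gene reached the level for testing.

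**Figure D1:**
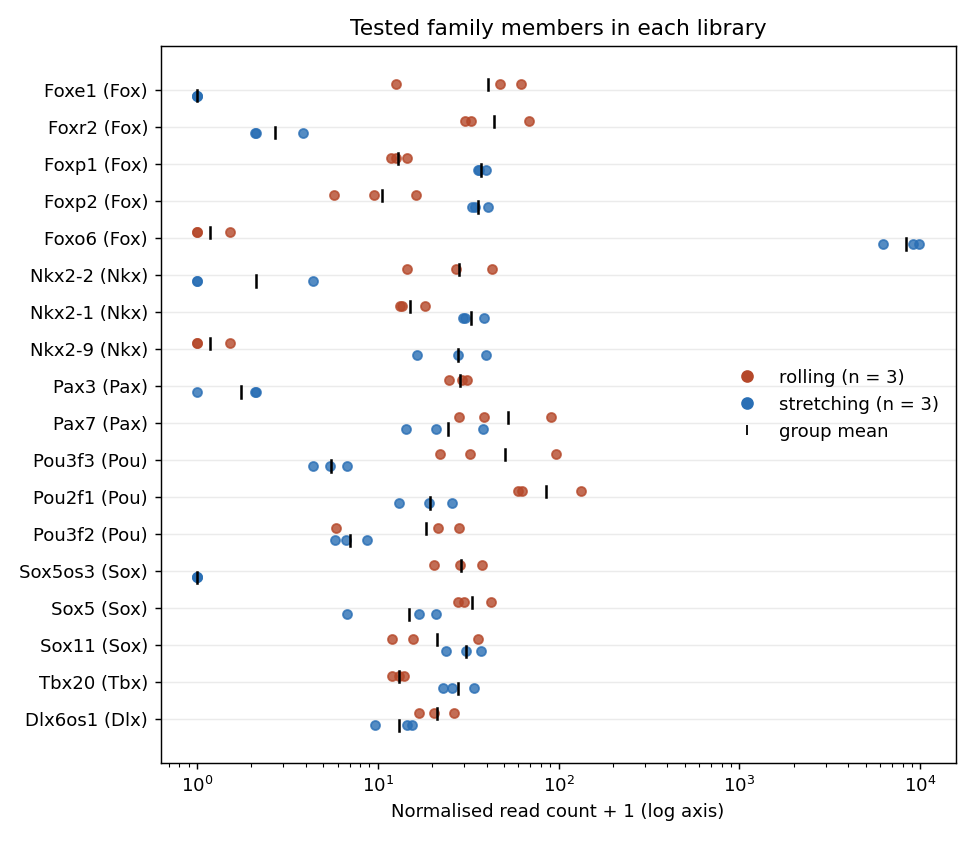
Normalised read count plus 1 (log axis) of the 18 tested members in each library, with rolling in red, stretching in blue and a bar at each group mean (n = 3). Foxo6 stands at 6199.5 or more in the 3 stretching libraries and below 1 before adding 1 in rolling, while most other members lie between 0 and 132, and only Pax7, Pou3f2 and Sox11 have overlapping groups.

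The forkhead gene Foxo6 held most reads of all 9 families together. FOXO factors switch on genes of fasting, stress resistance and atrophy, and Foxo6 is known in the mouse mainly from the brain. Its normalised read counts were 9099.7, 9894 and 6199.5 in stretching 1 to 3 and 0.527, 0 and 0 in rolling 1 to 3. All 3 stretching libraries were thus high, and the rolling group rested on a single read in rolling 1. The 23832 stretching reads made a depth-adjusted 30609.9-fold ratio (95% counting interval 5493 to 1209076), and limma gave an adjusted p of 6.8e-08. These reads were 98.5% of the Fox reads and 94.6% of all member reads in stretching, and 1.03% to 2.16% of the counted reads of a stretching library. The fitted log2 difference of -12.80 (SE 0.36) ranged from -14.70 by DESeq2 to -9.98 with a pseudocount of 8, since a group with almost no reads leaves its size to the pseudocount and the tool.

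The other genes of the FOXO group stayed at few reads. Foxo1, which regulates glucose metabolism, had 4 reads in rolling and 14 in stretching, 10 of them in stretching 3. Foxo4 had 11 and 10, and Foxo3, a factor of stress resistance, had a single read in rolling and none in stretching. None of the 3 was tested by limma, and for Foxo1 the authors' deposited table gave an adjusted p of 0.33, for Foxo4 of 0.84.

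Foxp1 and Foxp2 fell in rolling. Both are forkhead repressors that act in the developing brain, heart and lung, and FOXP2 is known for its role in human speech. Foxp1 stood at 11.6, 13.5 and 10.9 in rolling 1 to 3 and at 35.5, 35.1 and 38.8 in stretching 1 to 3, with little spread in either group. Its log2 difference was -1.53 (SE 0.34, adjusted p 0.0026 by limma). Foxp2 stood at 4.74, 8.57 and 15.2 in rolling and at 33.5, 39.6 and 32.1 in stretching, a log2 difference of -1.90 (SE 0.45, adjusted p 0.0038 by limma). No rolling library reached a stretching library for either gene. The other FoxP genes were sparse, with 5 reads in rolling and 8 in stretching for Foxp4 and 7 and 0 for Foxp3, the factor of mammalian regulatory T cells.

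Foxe1 and Foxr2 went the other way. Foxe1, a factor of thyroid and palate development in mammals, had no read in stretching and stood at 11.6, 61.2 and 46.7 in rolling 1 to 3. Against a floor of 3 reads over the stretching group, and with its rolling reads taken as exact, its rolling level was at least 29.8-fold higher (adjusted p 4.8e-05 by limma). The value of rolling 1 was the lowest of its group, and the fitted log2 difference of 5.06 (SE 0.59) became 5.77 without that library, and lay between 2.39 and 8.28 with other pseudocounts and tests. Foxr2, a forkhead gene with little known function in normal tissue, stood at 31.6, 29.4 and 67.4 in rolling and at 2.87, 1.13 and 1.11 in stretching. Its 146 reads against 5 made a 22.7-fold ratio (95% counting interval 9.52 to 71.1), and its log2 difference was 3.98 (SE 0.48, adjusted p 6.3e-05 by limma), 2.32 with a pseudocount of 8 and 4.61 by DESeq2.

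Beneath the level for testing, the authors' deposited table called 6 more Fox genes. It gave an adjusted p to 10612 features and called 37.2% of them (18.7% higher and 18.5% lower in rolling). Over all 146 rows it gave an adjusted p to 80 and called 25 (31.2%), 15 higher and 10 lower, of which 14 lay beneath that level. Foxd4, Foxj2 and Foxl1, the last a factor of the gut mesenchyme, had 30, 28 and 17 reads in rolling and none in stretching, at least 7.79-fold, 7.27-fold and 4.41-fold higher in rolling. Foxk2 had 27 reads in stretching against 2 in rolling, a 17.3-fold ratio (95% counting interval 4.36 to 150.5). Foxd1, a factor of the kidney stroma and the retina, had 1 and 15, a 19.3-fold ratio (2.96 to 811). The authors' adjusted p in their deposited table was 0.0053 for Foxd4, 0.0049 for Foxj2, 0.042 for Foxl1, 0.011 for Foxk2 and 0.043 for Foxd1.

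**Figure D2:**
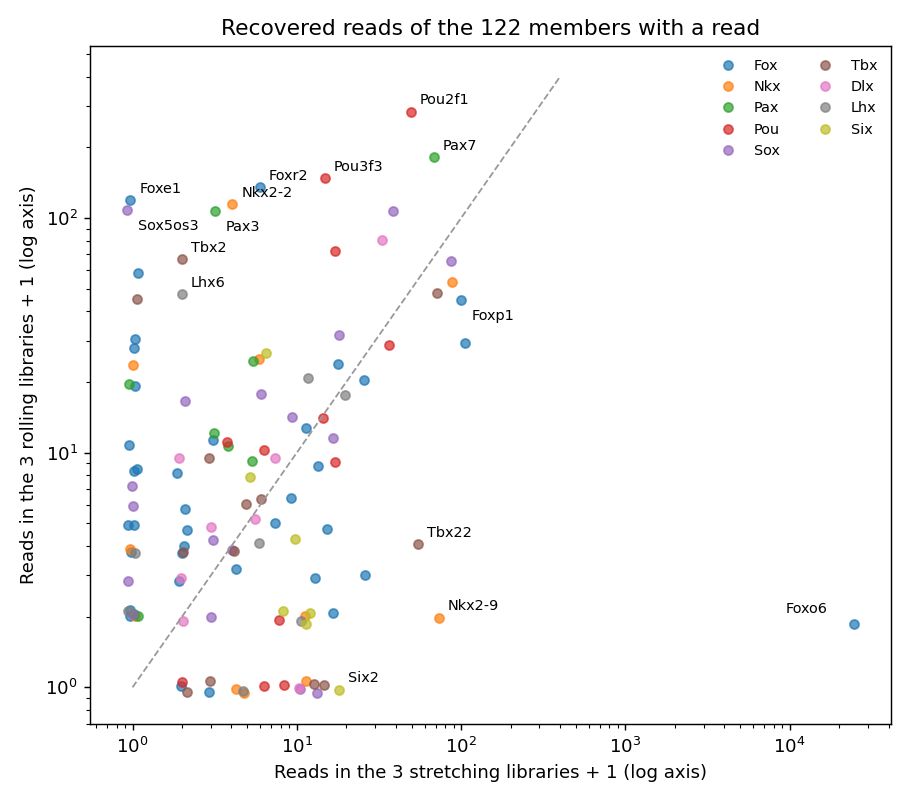
Reads summed over the 3 rolling libraries against reads summed over the 3 stretching libraries, each plus 1 on log axes, for the 122 members with a read, coloured by family and moved by at most 8% at random so that points do not hide each other. The dashed line marks equal reads without adjustment for depth; Foxo6 lies alone at the lower right with 23832 stretching reads, and members with reads in rolling only, such as Foxe1 and Sox5os3, line the left edge.

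The 3 tested Nkx genes, homeodomain factors of the ventral nervous system and of several organs, all changed but not in one direction. Nkx2-2, which specifies ventral neural progenitors and pancreatic cells, stood at 41.6, 13.5 and 26.1 in rolling 1 to 3 and at 0, 3.40 and 0 in stretching 1 to 3. All 3 of its stretching reads lay in stretching 2. The 114 reads in rolling against 3 made a 29.6-fold ratio (95% counting interval 9.87 to 145.6), and the log2 difference was 3.96 (SE 0.67, adjusted p 0.00051 by limma), 4.68 without stretching 2 and 1.88 with a pseudocount of 8. Nkx2-9, a gene of the ventral neural tube that responds to hedgehog signalling, stood at 26.8, 38.5 and 15.5 in stretching and had 1 read in rolling, found in rolling 1. Its 76 reads against that read made a 97.6-fold ratio (95% counting interval 17.0 to 3906), with a fitted log2 difference of -4.51 (SE 0.45, adjusted p 1.7e-05 by limma) that ranged from -6.42 by DESeq2 to -2.04 with a pseudocount of 8.

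Nkx2-1, the factor of thyroid, lung and ventral forebrain, stood at 12.7, 12.2 and 17.4 in rolling 1 to 3 and at 28.7, 29.4 and 37.7 in stretching 1 to 3. The groups did not overlap, and the log2 difference was -1.13 (SE 0.36, adjusted p 0.016 by limma). The call was lost without stretching 3 (adjusted p 0.053), with scaling to library totals (0.11) and by DESeq2 (0.078). Of the other Nkx genes, Nkx2-3 had 1 read in rolling and 10 in stretching, and neither it nor any untested Nkx row was called in the authors' deposited table.

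Among the Pou genes, 2 of the 3 tested members rose in rolling. Pou2f1, a broadly expressed factor that binds the octamer motif, stood at 58.5, 132 and 61.9 in rolling 1 to 3 and at 18.2, 24.9 and 12.2 in stretching 1 to 3. Every rolling library lay above every stretching library, and the log2 difference was 2.08 (SE 0.44, adjusted p 0.0021 by limma). Pou3f3, a factor of the forebrain and kidney, stood at 21.1, 95.5 and 31.5 in rolling and at 5.75, 3.40 and 4.43 in stretching. Rolling 2 stood far above the other rolling libraries, and the log2 difference of 2.92 (SE 0.57, adjusted p 0.0012 by limma) was 2.30 without it and 1.98 with a pseudocount of 8.

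Pou3f2, a close relative that drives neuronal differentiation, stood at 20.6, 4.90 and 27.2 in rolling and at 4.79, 5.66 and 7.75 in stretching. The value of rolling 2 lay within the stretching range, and the difference of 1.14 on the log2 scale (95% interval -0.24 to 2.51, adjusted p 0.12 by limma) did not pass, although it was 1.82 with an adjusted p of 0.0067 without rolling 2. The library that was high for Pou3f3 was thus the low library for Pou3f2. Pou3f1, the other gene of this group with reads, had 8 reads in rolling and 17 in stretching, 11 of them in stretching 1.

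Pax3 rose in rolling. Pax3 and Pax7 are paired-box factors of muscle precursors and neural crest in vertebrates, and insect relatives of this pair act in body segmentation. Pax3 stood at 30.0, 28.2 and 23.9 in rolling 1 to 3 and at 0, 1.13 and 1.11 in stretching 1 to 3, with rolling libraries close to each other. Its 102 reads against 2 made a 39.7-fold ratio (95% counting interval 10.7 to 332), and the log2 difference was 4.10 (SE 0.44, adjusted p 2.7e-05 by limma), between 2.01 and 5.26 with other pseudocounts and tests. Pax7 stood at 37.9, 89.4 and 27.2 in rolling and at 20.1, 37.4 and 13.3 in stretching, with overlapping groups. Its difference was 1.03 on the log2 scale (95% interval -0.19 to 2.25, adjusted p 0.11 by limma) and did not pass.

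All 9 Pax rows with a read, Pax3 and Pax7 among them, held more reads in rolling after adjustment for depth. This was so also with TMM scaling and with scaling to library totals. With the deposited scaling, 54.9% of all members with a read and 51.0% of all features with a read had more in rolling. Most rest on very few reads, and no test was made of this count. Pax4, a factor of pancreatic beta cells, had 8, 1 and 9 reads in rolling 1 to 3 and none in stretching, at least 4.67-fold higher, with an adjusted p of 0.037 in the authors' deposited table. Pax8, a factor of thyroid and kidney, had 23 reads against 4, a 4.48-fold ratio (95% counting interval 1.53 to 17.8), and Pax2 and Pax9 had 10 against 3 and 11 against 2. Of these 4, only Pax4 was called in the authors' deposited table.

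The Sox family showed 2 calls, both at 1 locus in the mouse. Sox5, an HMG-box factor of cartilage and neurons that lacks an activation domain of its own, stood at 29.0, 26.9 and 41.3 in rolling 1 to 3 and at 5.75, 15.9 and 19.9 in stretching 1 to 3. Its log2 difference was 1.30 (SE 0.49, adjusted p 0.036 by limma). The call was lost in 5 of the 6 fits without a library, where the adjusted p was 0.057 to 0.11 and the log2 difference was 0.81 without stretching 1, and also without a filter (0.064), by edgeR (0.060), by DESeq2 (0.11) and with scaling to library totals (0.18). Sox5os3, named as a transcript from the opposite strand of Sox5, stood at 27.4, 19.6 and 37.0 in rolling and had no read in stretching. It was at least 26.5-fold higher in rolling (adjusted p 4.7e-06 by limma), with a fitted log2 difference of 4.81 (SE 0.38) that lay between 2.14 and 7.84 with other pseudocounts and tests. The labels do not say whether counting used the strand, so reads from a stretch shared by a gene and its opposite-strand partner cannot be told apart. In stretching Sox5 had 38 reads and Sox5os3 had 0, so these rows were not filled by the same reads throughout.

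Sox11, a factor of neuronal precursors, stood at 14.8, 11.02 and 34.8 in rolling and at 23.0, 36.2 and 29.9 in stretching, with rolling 3 inside the stretching range. The difference of -0.68 on the log2 scale (95% interval -1.75 to 0.40, adjusted p 0.22 by limma) did not pass, but was -1.14 with an adjusted p of 0.033 without rolling 3. Sox1, a marker of neural progenitors, had 5, 3 and 4 reads in stretching 1 to 3 and none in rolling, at least 5.14-fold lower in rolling, with an adjusted p of 0.037 in the authors' deposited table. Sox7, the untested Sox gene with the most reads, had 31 reads in rolling against 18, a 1.34-fold ratio (95% counting interval 0.727 to 2.55).

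Tbx20, a T-box factor of the vertebrate heart, was the only tested Tbx gene and fell in rolling. It stood at 12.1, 11.02 and 13.0 in rolling 1 to 3 and at 22.0, 24.9 and 33.2 in stretching 1 to 3, a log2 difference of -1.07 (SE 0.36, adjusted p 0.022 by limma). The groups did not overlap, yet the call was lost without stretching 3 (adjusted p 0.071), without a filter (0.060), by DESeq2 (0.11) and with scaling to library totals (0.14). The authors' deposited table gave an adjusted p to 9 Tbx rows and called 4 (44.4%, against 37.2% of all features with an adjusted p), 2 in each direction, all 4 beneath the level for testing. Tbx2, a repressor that limits cell differentiation in heart and limb, had 62 reads in rolling against 1, a 48.3-fold ratio (95% counting interval 8.35 to 1937), and 47 of the 62 lay in rolling 1. Tbx4, a factor of hindlimb and lung, had 35, 9 and 1 reads in rolling 1 to 3 and none in stretching, at least 11.7-fold higher. In the other direction, Tbx22, a gene of palate development, had 17, 20 and 13 reads in stretching against 3 in rolling, a 21.4-fold ratio (6.92 to 107), and Tbx19, a pituitary factor, had 0 against 14, at least 5.99-fold lower in rolling. The authors' adjusted p in their deposited table was 0.0023 for Tbx2, 0.0037 for Tbx4, 0.00054 for Tbx22 and 0.022 for Tbx19.

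**Figure D3:**
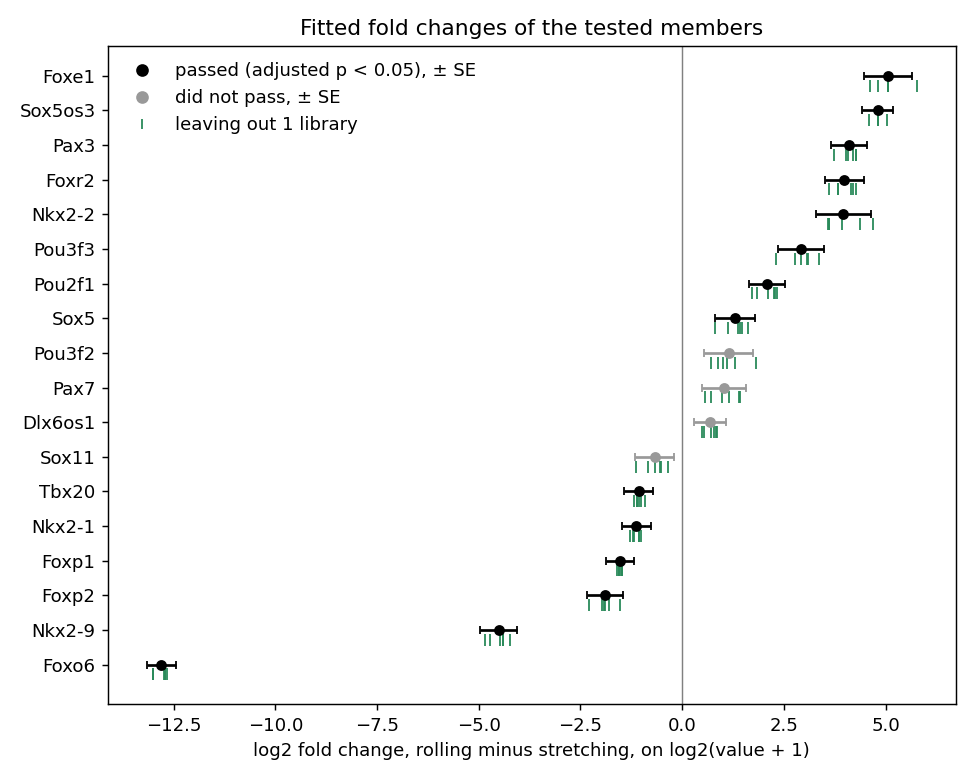
Fitted log2 difference of the 18 tested members, rolling minus stretching on log2(value + 1), with its SE, in black where limma's adjusted p passed 0.05 and grey where it did not, and green ticks for the values without each library in turn. No member changes sign when a library is left out; Foxo6 at -12.80 lies far outside the others, which run from -4.51 to 5.06.

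Lhx, sine oculis and Dlx rows held few reads throughout. Lhx6, a LIM-homeodomain factor of forebrain interneurons, had 18, 13 and 16 reads in rolling 1 to 3 against 0, 0 and 1 in stretching 1 to 3, a 36.6-fold ratio (95% counting interval 6.25 to 1476) and an adjusted p of 0.0016 in the authors' deposited table. Lhx9, a factor of gonad and limb, had 16 reads against 18, with 13 of the 18 in stretching 3, and Lhx2 had 20 against 10 with none in rolling 3, a 1.56-fold ratio of rolling to stretching (0.696 to 3.73). Six2, which maintains nephron progenitors, had 10, 2 and 6 reads in stretching 1 to 3 and none in rolling, at least 7.71-fold lower in rolling (adjusted p 0.011 in the authors' deposited table). Six4, a muscle and sense organ factor, leaned the other way with 24 reads against 6, a 3.11-fold ratio (1.24 to 9.31), and an adjusted p of 0.28 in the authors' deposited table.

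Dlx genes, which pattern the jaw, the limbs and the forebrain and whose fly relative is Distal-less, had at most 14 reads each over the 6 libraries. The noncoding Dlx6os1, a regulator of the neighbouring Dlx genes, reached the level for testing with 25.3, 15.9 and 19.6 in rolling 1 to 3 and 8.62, 13.6 and 14.4 in stretching 1 to 3. The groups did not overlap, but the difference of 0.69 on the log2 scale (95% interval -0.20 to 1.59, adjusted p 0.14 by limma) did not pass. Dlx2 had 8 reads in rolling and 6 in stretching, and Dlx6 itself 4 and 2.

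Sums over each family were compared next. The Pax sum was 85.9, 131 and 81.5 in rolling 1 to 3 and 23.0, 47.6 and 16.6 in stretching 1 to 3, a log2 ratio of group means of 1.78. The Pou sum was 168 ± 71.6 in rolling against 62.1 ± 5.13 (SD, n = 3), a log2 ratio of 1.44, and the Sox sum was 108 ± 28.1 and 70.7 ± 11.7, a log2 ratio of 0.61. For these 3 families every rolling library lay above every stretching library with the deposited scaling. For Sox this rested on the noncoding Sox5os3, which gave 19.6 of the 80.8 in rolling 2, against 79.8 in stretching 3. The higher Pou sum in rolling lay mainly in Pou2f1, with means of 84.2 in rolling and 18.4 in stretching, and in Pou3f3, with 49.4 and 4.53. Of the 12 Pou rows with a read, 5 held more reads in rolling after adjustment for depth and 7 held more in stretching. The sine oculis sum was 9.25 ± 3.12 in rolling and 22.8 ± 5.43 in stretching and the Nkx sum 55.3 ± 17.2 and 71.2 ± 5.96, log2 ratios of -1.30 and -0.36, with every stretching library above. Fox without Foxo6 (182.7 ± 38.5 and 131 ± 12.2), Tbx (44.3 ± 18.3 and 59.9 ± 3.12), Dlx (27.2 ± 7.13 and 21.5 ± 6.54) and Lhx (26.1 ± 8.36 and 16.7 ± 9.75) overlapped between groups. All rows without Foxo6 summed to 720.8 ± 71.3 in rolling and 484.9 ± 41.3 in stretching. For each of these sums the log2 ratio kept its sign with TMM scaling, with library totals and when a library was left out. The separation of libraries was not kept. As a share of all counted reads, the groups overlapped for Pax, Pou, Sox, sine oculis and Nkx. The Sox share of rolling 3 (0.0112%) lay below every stretching library (0.0131% to 0.0163%). The Nkx share of rolling 1 (0.0234%) lay above every stretching library (0.0112% to 0.0171%). These sums were not tested, since the families were chosen with earlier results of the data known.

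**Figure D4:**
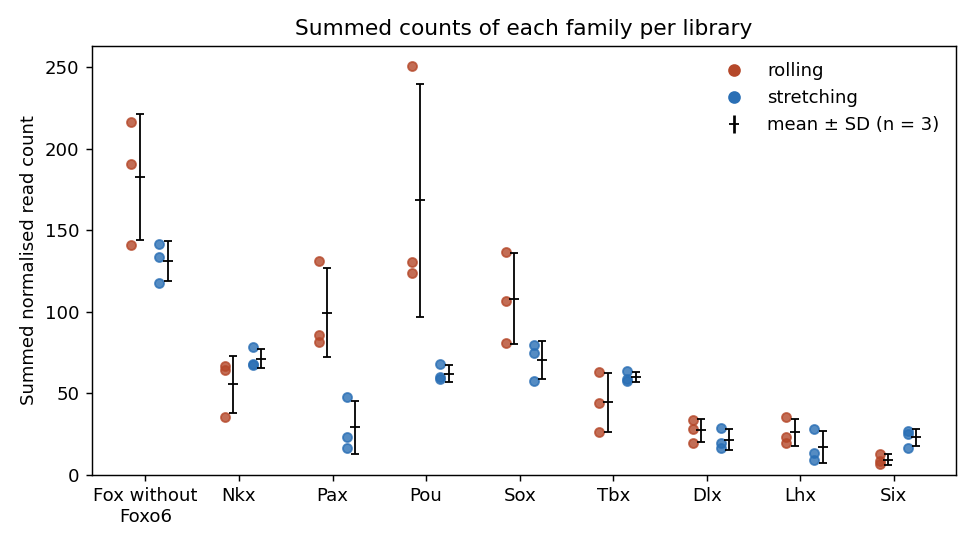
Summed normalised read count of each family (y axis from 0) in the 3 rolling (red) and 3 stretching (blue) libraries, with group mean ± SD (n = 3), Fox shown without Foxo6. Pax, Pou and Sox lie higher in every rolling library, the sine oculis family (Six2 and its relatives) and Nkx higher in every stretching library, and the other families overlap.

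As a share of all counted reads, rows without Foxo6 held 0.231%, 0.156% and 0.0582% in rolling 1 to 3 and 0.10%, 0.113% and 0.0825% in stretching 1 to 3. The share was lowest in rolling 3, the library with 1122154 reads, whereas its normalised sum of 709.7 lay between those of the other rolling libraries. Of 73 members with at least 10 reads, 16 (21.9%) had no read in one group, 9 with reads in rolling only and 7 in stretching only, against 17.0% of all features with as many reads (9.43% in rolling only and 7.53% in stretching only). Besides those already named, these included Nkx6-3 with 21 reads in rolling, and Tbx5, Sox17 and Dlx4 with 10 or 11 in stretching, singled out after their values were seen.

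Partners of these families were read from the same fit. Of 33 listed cofactors, among them the member Foxh1, 28 had reads and 6 were tested, of which 4 rose and 1 fell, 83.3% where the background is 75.2%. Dach1 and Dach2 encode corepressors that act with sine oculis and Eya proteins, and they moved in opposite directions. Dach1 rose to 516 ± 229 from 14.1 ± 6.36 (SD, n = 3), by 5.07 in log2 (SE 0.49, adjusted p 1.5e-05 by limma), while Dach2 fell to 6.97 ± 4.39 from 121 ± 57.04, a log2 difference of -3.97 (SE 0.51, adjusted p 9.4e-05 by limma). Tle4, a Groucho corepressor, rose by 2.82 (SE 0.57, adjusted p 0.0016 by limma), and Aes, a short relative, had 77 reads against 1, a 60.0-fold ratio (95% counting interval 10.4 to 2398).

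Of 33 listed regulators of FOXO factors, 30 had reads and 10 were tested, of which 4 rose and 3 fell, 70.0% against the 75.2% of all tested features and so no more than the background. Crebbp and Ep300, acetyltransferases that bind FOXO proteins, rose by 6.22 (SE 0.67) and 3.01 (SE 0.56) in log2 units (adjusted p 2.9e-05 and 0.00099 by limma). The value of Crebbp was 5.55 without rolling 1 and 6.90 without rolling 3. Pik3ca, the catalytic subunit of the lipid kinase downstream of the insulin receptor, fell from 60.0 ± 13.7 to 11.3 ± 2.92, and Irs4, an adaptor of that receptor, from 19.1 ± 5.996 to 2.48 ± 1.08 (SD, n = 3; adjusted p 0.00038 and 0.00058 by limma). Ywhae belongs to the 14-3-3 family, which holds most FOXO proteins in the cytoplasm once they are phosphorylated. Ywhae stood at 404 ± 60.1 in rolling and 328 ± 48.1 in stretching and did not pass (adjusted p 0.46 by limma).

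Among 94 other developmental factors, 81 had reads and 16 were tested, of which 6 rose and 6 fell, a share of 75.0% that is level with the 75.2% of all tested features. Zic4, a zinc-finger factor of the cerebellum, had no read in stretching, which makes its rolling level at least 25.4-fold higher. Irx6, an Iroquois homeobox gene, had 169 reads against 2, a 65.8-fold ratio (95% counting interval 17.9 to 548). Onecut3 rose by 3.12 (SE 0.46, adjusted p 0.00022 by limma) and Snai2, a repressor of epithelial genes, by 1.09 (SE 0.32, adjusted p 0.012 by limma), the latter not called by edgeR (0.052) or with scaling to library totals (0.26). Prox1, a homeobox factor of lymphatic vessels and neurons, had 78 reads in stretching against 1 in rolling, a 100.2-fold ratio (17.5 to 4007), and the neuronal factor Neurod2 fell by 3.52 in log2 units (SE 0.44, adjusted p 7.7e-05 by limma). Neurod6, of the same family, was called in the other direction, with 409 reads in rolling against 32 in stretching. As a check on the mouse names, 13 markers of vertebrate blood and liver were looked up, of which 5 had reads. The 6 haemoglobin genes had none in any library, whereas Alb, the serum albumin gene, rose from 4.08 ± 5.23 to 158 ± 127 (SD, n = 3; adjusted p 0.00042 by limma). The log2 difference of Alb was 5.29, and 4.68 without rolling 2, 4.43 without stretching 1 and 6.16 without stretching 3. The list held 32 to 250 reads per library, and its part in the results above was not tested.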

How the data were processed

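Poly(A) RNA of 3 rolling and 3 stretching samples was analysed from 1 deposited table. Per the submitters' processing notes, BWA and DESeq2 were used with the mouse build mm10, and neither versions nor the counting program are stated there. The deposited signal values are reads divided by 1 size factor per sample, and 100% of them were whole multiples of the smallest value above 0 of their column, to within 1e-09 reads. The authors' deposited table also holds a log2 fold change, its SE, a test statistic (a score), and raw and adjusted p-values. The header words curl and strait were read as rolling and stretching.

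The main test was limma 3.58.1 (R 4.3.3, with trend, two-sided) on log2(signal + 1) for features with a mean of at least 10, Benjamini-Hochberg adjusted, at a threshold of 0.05. Ratios of recovered reads carry exact conditional 95% intervals. Bounds use a floor of 3 reads over the empty group and take the reads of the other group without counting error. Fold changes on this scale understate those of low features. Alternatives were pseudocounts of 0.5 and 8, no filter, TMM scaling (edgeR 4.0.16), library totals, edgeR's quasi-likelihood test and DESeq2 1.42.0 on recovered reads, a replicate block, and leaving out each library. The scripts were checked on simulated data. Members, gene lists and tests were chosen with earlier results of these data known. Named were all tested members, other members called in the authors' table, the 2 with most reads per family and, per partner list, up to 4 called genes with the smallest adjusted p and the 2 with the highest mean; further genes are given by their reads. Some named results are not reported here.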

Additional observations from a re-analysis of the deposited data

How the results depend on the processing

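Without a filter on low values 37 of the 122 members with a read were called, 19 higher and 18 lower in rolling. Of all 18260 features with a read 5773 (31.6%) were called, 2927 higher and 2846 lower. DESeq2 on recovered reads called 25 members, 15 higher and 10 lower, among 3951 (1989 and 1962). DESeq2 was run with the deposited size factors and gave the same counts as the authors' deposited table, so they are not separate results. The fit without a filter and DESeq2 test more features than the main test, where 14 of 18 members and 2217 features passed. Of the 14 they kept 12 and 11. Leaving out a library gave 12 to 14 members (7 or 8 higher, 4 to 7 lower) and 2076 to 2173 features. Sox5, Nkx2-1 and Tbx20 were the members that lost their call in any alternative, and Pax7, Pou3f2 and Sox11 gained one in 1 alternative each. None of the 18 changed sign. With edgeR 13 of the 18 members were called, among 2244 of the 2948 tested features. With library totals 11 were called, among 1977 features, fewer than in the main test for both. That scaling shifted the median over all tested features by -0.16 in log2. Same-numbered samples of the groups did not deviate together (correlations of 0.0209, -0.00664 and 0.00870 over tested features), so the numbers were not taken as pairs. With the replicate block 14 members and 2224 features were called, Tbx20 being lost (limma adjusted p 0.053) and Pax7 gained (0.046). Depth limits the 104 untested members with reads, whose means lay at 9.55 or less.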

Other observations

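The noncoding rows named after a factor gene, looked at together after their values were seen, were sparse apart from Sox5os3 and Dlx6os1. Nkx2-2os, on the opposite strand of Nkx2-2, had 9, 6 and 8 reads in rolling 1 to 3 and 1, 0 and 4 in stretching 1 to 3, a depth-adjusted 3.58-fold ratio (95% counting interval 1.33 to 12.1), in the same direction as Nkx2-2, and it was not called in the authors' deposited table (adjusted p 0.21). Six3os1 had 1 read in rolling and 10 in stretching, and Six3 itself 1 and 11, both not called there (adjusted p 0.13 and 0.16). Dlx1as had 8 reads in rolling and 1 in stretching, while Dlx1 had 4 and 5. Where such genes share a stretch, its reads cannot be told apart without knowledge of the strand.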
